A study of Sesamum indicum with 6 samples.

Results

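Stomata are the pores of the leaf surface. Among the 20661 sesame genes with a product name in the deposited annotation, 28 had a name tied to their patterning or closing. They were chosen by words in that name, namely EPIDERMAL PATTERNING FACTOR, SPEECHLESS, MUTE, FAMA, TOO MANY MOUTHS, ERECTA, ICE1, SCREAM or stomatal. Some of the 28 are known for organ growth or for closing the finished pore rather than for building stomata. Measured values were no criterion, but earlier results of these data were known when the choice was made. RNA was taken from young leaves of 17-day-old seedlings of sesame (Sesamum indicum), an oilseed crop, kept at 28 °C in the 12 h of light and at 22 °C in the dark. Plants of the group SiCD_B carried on both copies of linkage group 8 the SiCD-B allele, which includes mutant kan1. Plants of the group SiCD_A carried SiCD-A on both, which includes wild-type KAN1, named for an Arabidopsis regulator of the lower leaf side. All plants were recombinant inbred lines, so other loci also segregate among them. Each group had 19 plants and was read as 3 pools of 9 plants drawn at random. Since 3 such pools take 27 plants, 8 more than a group has, some plants must sit in more than 1 pool, and p-values measure only the spread between pools that overlap in this way.

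The stomatal lineage is best known from Arabidopsis, and the roles given below come from that species. A protodermal cell enters the lineage under SPEECHLESS and becomes a guard mother cell under MUTE, and the paired guard cells form under FAMA. Each of these basic helix-loop-helix (bHLH) factors works with a partner, ICE1 (also called SCREAM) or SCREAM2. Secreted peptides of the EPF and EPFL family reach receptor kinases of the ERECTA family and the co-receptor TOO MANY MOUTHS, which signal through the kinase YODA and a mitogen-activated protein (MAP) kinase cascade to hold SPEECHLESS back. EPFL9, also called STOMAGEN, competes with the other peptides and raises stomatal density.

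The SiCD_B pools held 74331695 to 82165322 counts and the SiCD_A pools 56123250 to 74705569. Levels are given as CPM (counts per 1000000) after TMM scaling between pools, and they compare pools, not genes, because they are not divided by transcript length. KAN1 itself (LOC105167765) had 54.4 ± 1.88 CPM in SiCD_B and 22.7 ± 2.30 CPM in SiCD_A (SD, n = 3 pools each). The labels do not say how the mutant gene is changed, so this level does not check them. Over the tested genes the first principal component, with 67.5% of the variance, separated the groups, and SiCD_A pool 3, the shallowest, stood apart from the other SiCD_A pools on the next (13.7%). The counts are of whole leaf RNA, in which fewer cells of a type and less RNA per cell cannot be told apart.

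SPEECHLESS rose, while MUTE and FAMA, which act after it, fell. The gene named SPEECHLESS-like did not rise, with 16.8 ± 2.44 CPM in SiCD_B and 18.3 ± 1.32 CPM in SiCD_A. Its log2 fold change was -0.13 (adjusted p = 0.399 in edgeR's test). The entry factor SPEECHLESS, peptides EPF2, EPFL1, EPFL2 and EPFL4, 2 ERECTA genes, 1 TOO MANY MOUTHS gene, 1 ICE1 gene and 1 gene of stomatal closure were higher in SiCD_B. MUTE and FAMA were the only stomatal genes called lower, and the call of MUTE held in 2 of the 6 fits with a pool left out. Of the 28 genes, 27 passed the filter on low counts and were tested. A gene is called here when its adjusted p is under 0.05 in edgeR's quasi-likelihood test (Benjamini-Hochberg over 21009 genes). By that rule 10 stomatal genes were higher in SiCD_B, against a background of 16.5% of all tested genes, and 2 were lower, against 14.1%. Of the 27, a larger share than the background was thus higher and a smaller share lower, a difference that was not tested. Calls in either direction made up 30.6% of all tested genes, and 15 stomatal genes were not called. The median log2 fold change was 0.18 over the 27 stomatal genes and 0.01 over all tested genes. Every SiCD_B pool lay above every SiCD_A pool for 14 of the 27 (25.8% of all tested genes) and below for 3 (22.6%), where groups did not overlap for 48.4% of all tested genes in either direction.

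**Figure D1:**
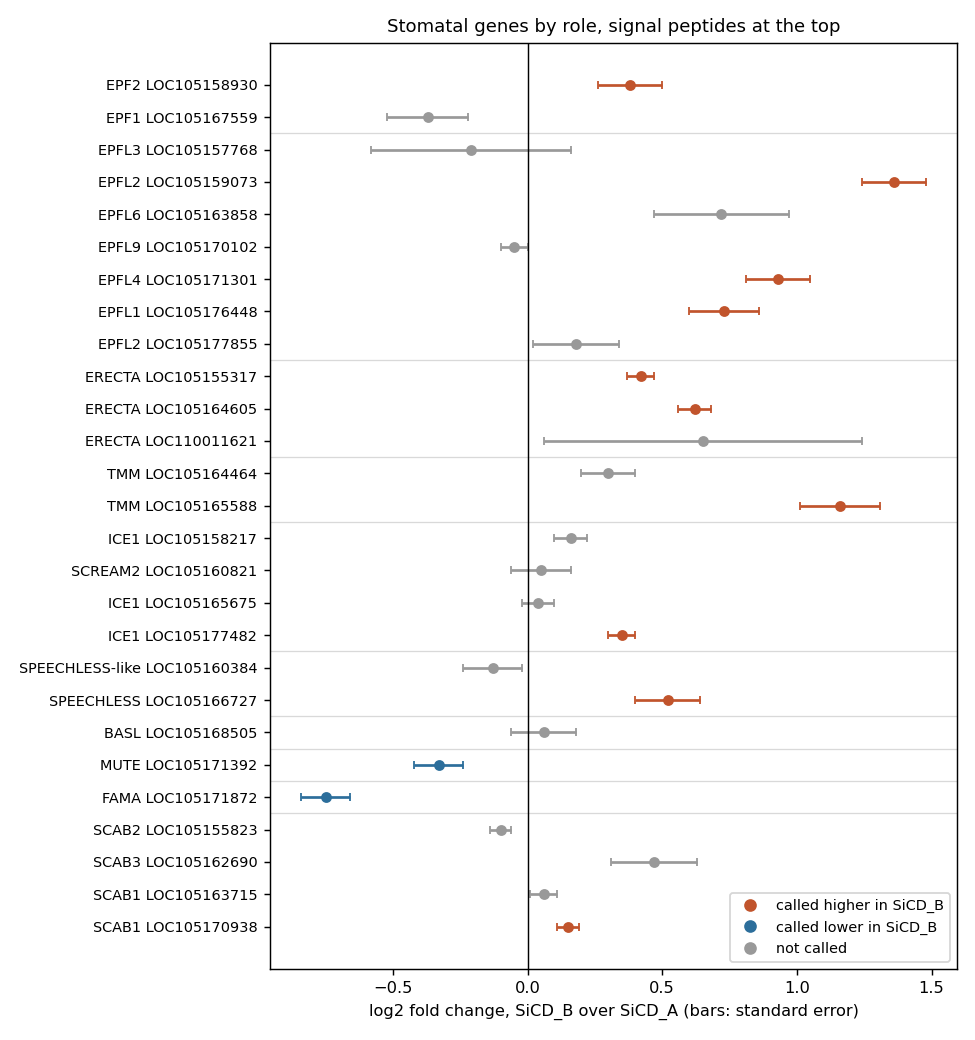
Log2 fold change (SiCD_B over SiCD_A) of the 27 tested stomatal genes on the horizontal axis, ordered by role from signal peptides at the top to stomatal closure genes at the bottom, with standard errors as bars. Called genes are coloured: 10 points lie to the right of 0, with EPFL2 LOC105159073 farthest out at 1.36, and MUTE (-0.33) and FAMA (-0.75) lie to the left.

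EPF2 and EPF1 are the peptides that the lineage itself secretes, EPF2 early, from cells that have just entered it, and EPF1 later, around guard mother cells. Positions are those of 1 coding segment in the authors' table, whose genome build is not given. EPF2 (LOC105158930, linkage group 3, coding segment 20152556 to 20152643, minus strand) had 12.1, 15.1 and 17.0 CPM in SiCD_B pools 1 to 3, against 11.8, 11.4 and 10.9 CPM in SiCD_A pools 1 to 3. The groups did not overlap, but SiCD_B pool 1 lay close to SiCD_A pool 1. EPF2 rose by 0.38 on the log2 scale (SE 0.12, adjusted p = 0.0389), a call lost when any pool but SiCD_B pool 1 was left out (adjusted p up to 0.122). EPF1 (LOC105167559, linkage group 8, 903632 to 903832, plus strand) had 3.85, 3.51 and 2.91 CPM in SiCD_B and 4.90, 4.55 and 3.76 CPM in SiCD_A. Its groups overlapped, in that SiCD_B pool 1 exceeded SiCD_A pool 3, and its log2 fold change of -0.37 (SE 0.15, adjusted p = 0.0937) did not pass. Without SiCD_A pool 3 it was -0.47 and passed (adjusted p = 0.0377).

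The EPFL peptides are relatives of these, several of them known for organ growth rather than stomata. EPFL2, which shapes the leaf margin in Arabidopsis, is the product name of 3 genes. LOC105159073 (linkage group 3, 21273700 to 21273808, minus strand) had 5.53, 5.84 and 6.68 CPM in SiCD_B, against 2.42, 2.27 and 2.34 CPM in SiCD_A. The groups were far apart and each was tight, and this gene rose 2.56-fold (log2 fold change 1.36, SE 0.12, adjusted p = 0.000185), the largest change among the 27. Another EPFL2 gene, LOC105177855 (linkage group 15), had overlapping groups and did not pass (0.18, SE 0.16, adjusted p = 0.424). The remaining one, LOC105158567 (linkage group 3), had only 5, 5 and 11 counts in SiCD_B and 9, 0 and 2 counts in SiCD_A and was not tested. A count of 0 allows up to 3 counts, or 0.0365 to 0.0535 CPM before scaling, which covers counting error only.

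EPFL4, a ligand of ERECTA in stem growth in Arabidopsis, rose 1.91-fold. LOC105171301 (linkage group 10, 119543 to 119651, plus strand) had 13.6, 12.8 and 12.3 CPM in SiCD_B and 7.80, 6.89 and 5.58 CPM in SiCD_A. Its log2 fold change was 0.93 (SE 0.12, adjusted p = 0.000742). EPFL1, which acts with EPFL2, EPFL4 and EPFL6 in the Arabidopsis shoot meristem, rose less. Its gene (LOC105176448, linkage group 13, 4473462 to 4473596, plus strand) had 4.56, 4.24 and 4.69 CPM in SiCD_B and 2.96, 2.78 and 2.36 CPM in SiCD_A. In both genes all SiCD_B pools lay above all SiCD_A pools, and EPFL1 rose by 0.73 on the log2 scale (SE 0.13, adjusted p = 0.00338). The calls of EPFL1, EPFL4 and EPFL2 LOC105159073 held whichever pool was left out.

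EPFL6, a partner of EPFL4 in stem growth, did not pass, although its pools did not overlap. LOC105163858 (linkage group 6) had 1.49, 1.33 and 1.77 CPM in SiCD_B and 0.774, 0.767 and 1.26 CPM in SiCD_A, and its log2 fold change was 0.72 (SE 0.25, adjusted p = 0.0535). SiCD_A pool 3 was the high one of its group, and without it the value was 0.98 (adjusted p = 0.0123). EPFL3 (LOC105157768, linkage group 3), at 18 to 40 counts a pool, had -0.21 (SE 0.37, adjusted p = 0.698), with overlapping groups. EPFL9, the mesophyll peptide that promotes stomata, did not pass either. LOC105170102 (linkage group 9, 1205298 to 1205370, minus strand) had 96.0, 88.1 and 92.5 CPM in SiCD_B and 91.9, 100.6 and 93.5 CPM in SiCD_A, with interleaved pools and log2 fold change -0.05 (SE 0.05, adjusted p = 0.496).

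**Figure D2:**
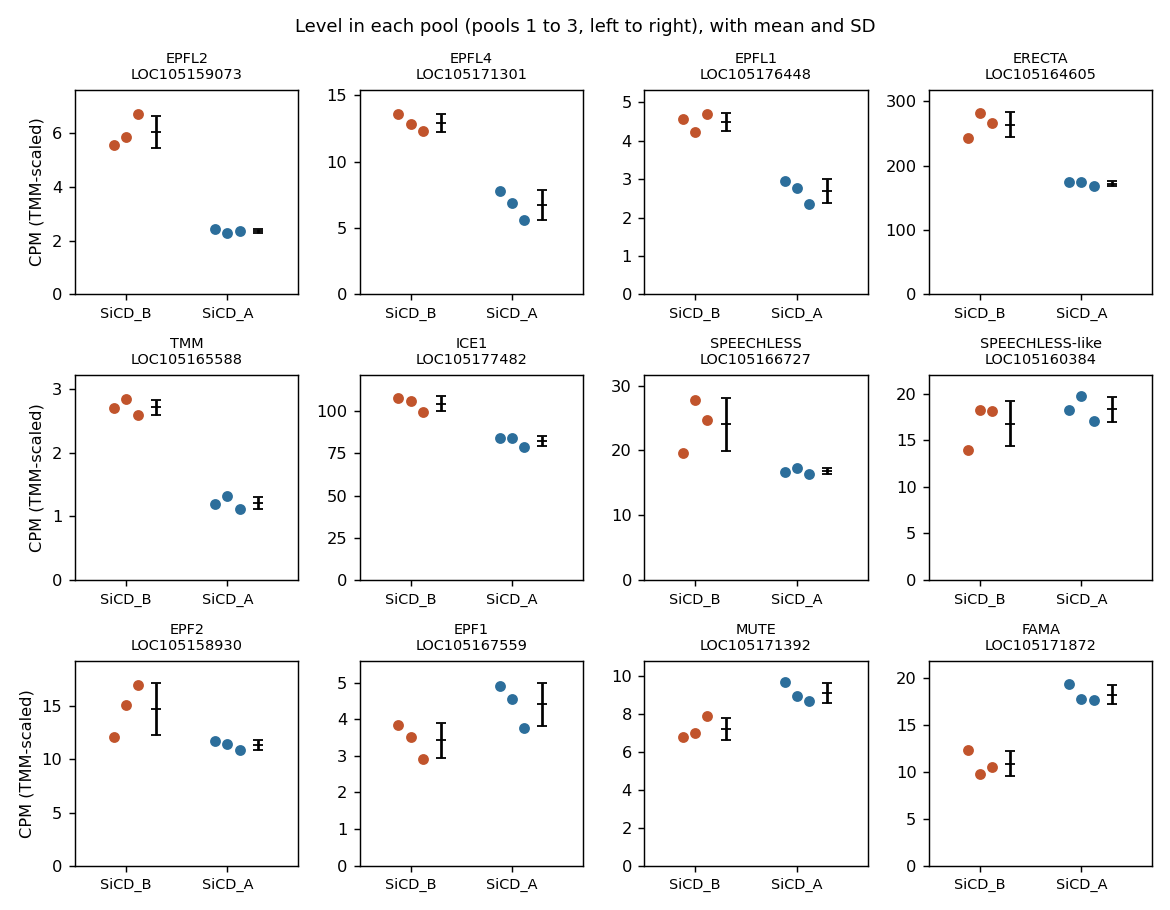
Level in CPM (vertical axis, from 0, its own scale in each panel) of 12 stomatal genes in the 3 SiCD_B pools and the 3 SiCD_A pools, with mean and SD beside each group. SiCD_B pools stand above SiCD_A pools in the panels of EPFL2, EPFL4, EPFL1, ERECTA, TMM (TOO MANY MOUTHS), ICE1, SPEECHLESS and EPF2, below them for MUTE and FAMA, and overlap them for SPEECHLESS-like and EPF1.

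Of the 5 genes of receptors 3 rose, where 16.5% of all tested genes did. ERECTA encodes a leucine-rich repeat receptor kinase that enforces stomatal spacing and promotes organ growth. LOC105164605 (linkage group 6, 16138770 to 16138872, minus strand) had 242.9, 281.7 and 266.1 CPM in SiCD_B and 174.0, 174.3 and 167.9 CPM in SiCD_A, and its log2 fold change was 0.62 (SE 0.06, adjusted p = 0.000226). LOC105155317 (linkage group 1, 2192016 to 2192139, plus strand), which the annotation marks as a low-quality protein model, had 336.4, 358.9 and 369.1 CPM in SiCD_B and 264.1, 270.7 and 258.4 CPM in SiCD_A. Neither gene's groups overlapped, and the second rose by 0.42 (SE 0.05, adjusted p = 0.000509). Another gene named ERECTA, LOC110011621 (linkage group 2), was at 0.127 to 0.781 CPM and turned on a single pool. It had 53, 37 and 42 counts in SiCD_B and 9, 15 and 44 counts in SiCD_A, and SiCD_A pool 3 was the highest of all pools per CPM. Its log2 fold change was 0.65 (SE 0.59, adjusted p = 0.441) with all pools and 1.73 (adjusted p = 0.0148) without SiCD_A pool 3.

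TOO MANY MOUTHS encodes a receptor-like protein without a kinase, which gives the ERECTA family its response to EPF peptides in the leaf epidermis. It has 2 genes. LOC105165588 (linkage group 6, 23188155 to 23189576, plus strand) had 2.70, 2.84 and 2.59 CPM in SiCD_B and 1.20, 1.32 and 1.12 CPM in SiCD_A, a 2.23-fold rise (log2 fold change 1.16, SE 0.15, adjusted p = 0.000830). LOC105164464 (linkage group 1, 12308298 to 12309773, plus strand) had 48.5, 57.4 and 52.1 CPM in SiCD_B and 44.4, 47.0 and 36.8 CPM in SiCD_A. These groups were separate but close, and the log2 fold change of 0.30 (SE 0.10, adjusted p = 0.0547) did not pass. It passed when SiCD_B pool 1 was left out (0.35, adjusted p = 0.0470), when SiCD_A pool 2 was (0.37, adjusted p = 0.0392), and in DESeq2's Wald test (adjusted p = 0.0175).

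Among the bHLH partner genes 1 of 4 was called, near the background of 30.6%. The ICE1 gene LOC105177482 (linkage group 15, 2002654 to 2003709, plus strand) had 107.8, 106.1 and 99.6 CPM in SiCD_B and 83.9, 84.0 and 78.8 CPM in SiCD_A. Its groups were well apart, and it rose by 0.35 on the log2 scale (SE 0.05, adjusted p = 0.00105). The ICE1 gene LOC105158217 (linkage group 3) had separate groups as well, 64.9 to 71.6 CPM in SiCD_B and 56.9 to 63.8 CPM in SiCD_A, but its 0.16 (SE 0.06, adjusted p = 0.0627) did not pass. The remaining ICE1 gene, LOC105165675 (linkage group 1), had 0.04 (SE 0.06, adjusted p = 0.622), and SCREAM2 (LOC105160821, linkage group 4) had 0.05 (SE 0.11, adjusted p = 0.774). Pools of the groups interleaved for both.

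SPEECHLESS starts the lineage and drives its asymmetric divisions. LOC105166727 (linkage group 7, 8975519 to 8975956, plus strand) had 19.6, 27.8 and 24.7 CPM in SiCD_B and 16.7, 17.3 and 16.4 CPM in SiCD_A. The SiCD_B pools were spread out and the SiCD_A pools tight, and all SiCD_B pools lay above all SiCD_A pools. SPEECHLESS rose 1.43-fold (log2 fold change 0.52, SE 0.12, adjusted p = 0.0127), and the call held without each pool in turn (adjusted p at most 0.0465). The gene named SPEECHLESS-like (LOC105160384, linkage group 4, 9300498 to 9300950, minus strand) had 14.0, 18.3 and 18.1 CPM in SiCD_B and 18.2, 19.7 and 17.1 CPM in SiCD_A. Its groups overlapped, and its log2 fold change was -0.13 (SE 0.11, adjusted p = 0.399). BREAKING OF ASYMMETRY IN THE STOMATAL LINEAGE (LOC105168505, linkage group 8, 13692017 to 13692104, minus strand), a polarity protein of the asymmetrically dividing cell, had 3.41 to 3.93 CPM in SiCD_B and 3.37 to 3.63 CPM in SiCD_A. These groups overlapped too (0.06, SE 0.12, adjusted p = 0.743).

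MUTE ends the asymmetric divisions and turns a meristemoid into a guard mother cell. LOC105171392 (linkage group 10, 736664 to 736759, plus strand) had 6.78, 7.03 and 7.89 CPM in SiCD_B, against 9.69, 8.96 and 8.68 CPM in SiCD_A. All SiCD_B pools lay below all SiCD_A pools, and MUTE fell, with log2 fold change -0.33 (SE 0.09, adjusted p = 0.0242). It was between -0.40 and -0.29 with any pool left out, but it no longer passed without SiCD_A pool 1 (adjusted p = 0.0852), SiCD_A pool 2 (0.0585), SiCD_B pool 1 (0.0661) or SiCD_B pool 2 (0.0823), leaving FAMA as the 1 stomatal gene called lower.

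FAMA limits the guard mother cell to a single division and sets guard cell identity. LOC105171872 (linkage group 10, 3905222 to 3905245, plus strand) had 12.3, 9.75 and 10.6 CPM in SiCD_B, against 19.4, 17.8 and 17.7 CPM in SiCD_A. The gap between the groups was wider than either group's range. FAMA stood at 0.595 times its SiCD_A level (log2 fold change -0.75, SE 0.09, adjusted p = 0.000691) and stayed called without each pool in turn (-0.85 to -0.67).

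**Figure D3:**
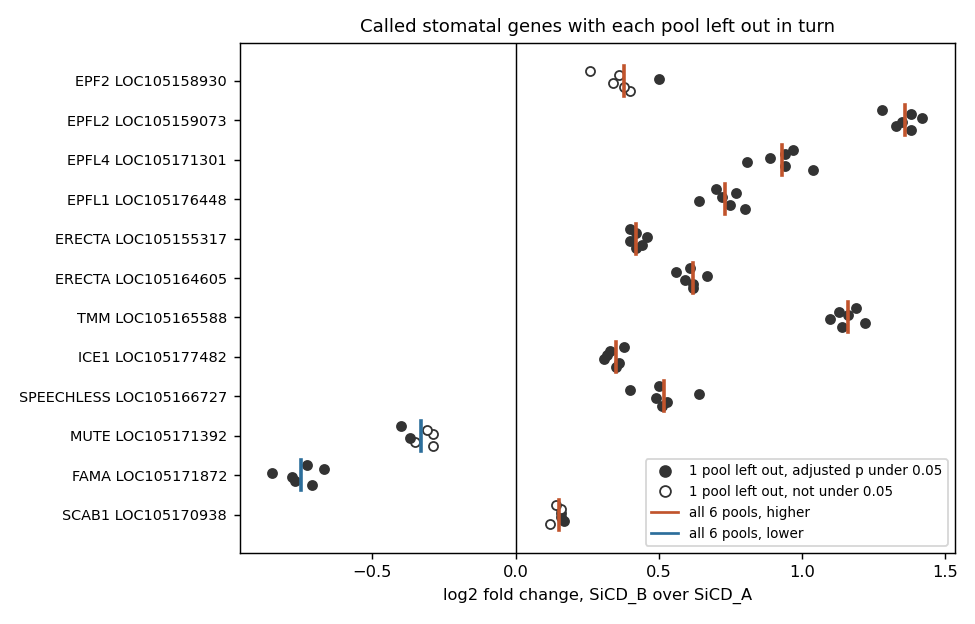
Log2 fold change (SiCD_B over SiCD_A, horizontal axis) of the 12 called stomatal genes with all 6 pools (vertical line) and with each pool left out in turn (6 points a gene, filled where the adjusted p stays under 0.05). All points of a gene lie on the same side of 0; open points appear for EPF2, MUTE and SCAB1 LOC105170938 (the actin-binding protein gene), and the other 9 genes have none.

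Ratios of counts within a pool do not depend on the scaling between pools, and they set late against early genes directly. The 12 ratios computed were chosen with the values known. FAMA over SPEECHLESS was 0.628, 0.351 and 0.428 in SiCD_B pools 1 to 3, against 1.16, 1.03 and 1.08 in SiCD_A pools 1 to 3, a log2 difference of -1.26. MUTE over SPEECHLESS was 0.345, 0.253 and 0.319 in SiCD_B and 0.580, 0.518 and 0.529 in SiCD_A (-0.84). Both ratios were lower in every SiCD_B pool than in any SiCD_A pool. That had to be so, because SPEECHLESS itself was higher, and MUTE and FAMA lower, in every SiCD_B pool. Both ratios thus restate those changes and add no further support. FAMA over MUTE was 1.82, 1.39 and 1.34 in SiCD_B and 2.00, 1.98 and 2.03 in SiCD_A (-0.42), again with no overlap.

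For the peptides of the lineage, the late EPF1 over the early EPF2 was 0.318, 0.232 and 0.171 in SiCD_B and 0.416, 0.398 and 0.346 in SiCD_A, a log2 difference of -0.73 with no overlap. Ratios between genes of the same or a like name were also set against each other. SPEECHLESS over SPEECHLESS-like was 1.43 ± 0.0796 in SiCD_B and 0.918 ± 0.0420 in SiCD_A (SD, n = 3). TOO MANY MOUTHS LOC105165588 over LOC105164464 was 0.0516 ± 0.00346 in SiCD_B and 0.0284 ± 0.00179 in SiCD_A. EPFL2 LOC105159073 over LOC105177855 was 0.824 ± 0.165 in SiCD_B and 0.371 ± 0.0862 in SiCD_A. For these 3 pairs the SiCD_B pools were all above the SiCD_A pools, while MUTE over SPEECHLESS-like overlapped (0.435 ± 0.0505 in SiCD_B, 0.498 ± 0.0393 in SiCD_A). FAMA over SPEECHLESS-like was lower in SiCD_B without overlap, with a log2 difference of -0.62, against -1.26 over SPEECHLESS. SPEECHLESS over ICE1 LOC105177482 overlapped (0.231 ± 0.0426 in SiCD_B, 0.204 ± 0.00474 in SiCD_A). ERECTA LOC105164605 over LOC105155317 and ICE1 LOC105177482 over LOC105158217 were higher in SiCD_B (0.19 each), without overlap. With 3 pools against 3 the 2-sided exact permutation test cannot go below p = 0.1, the value of 10 of the 12 ratios (adjusted p = 0.12), so none can pass 0.05.

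**Figure D4:**
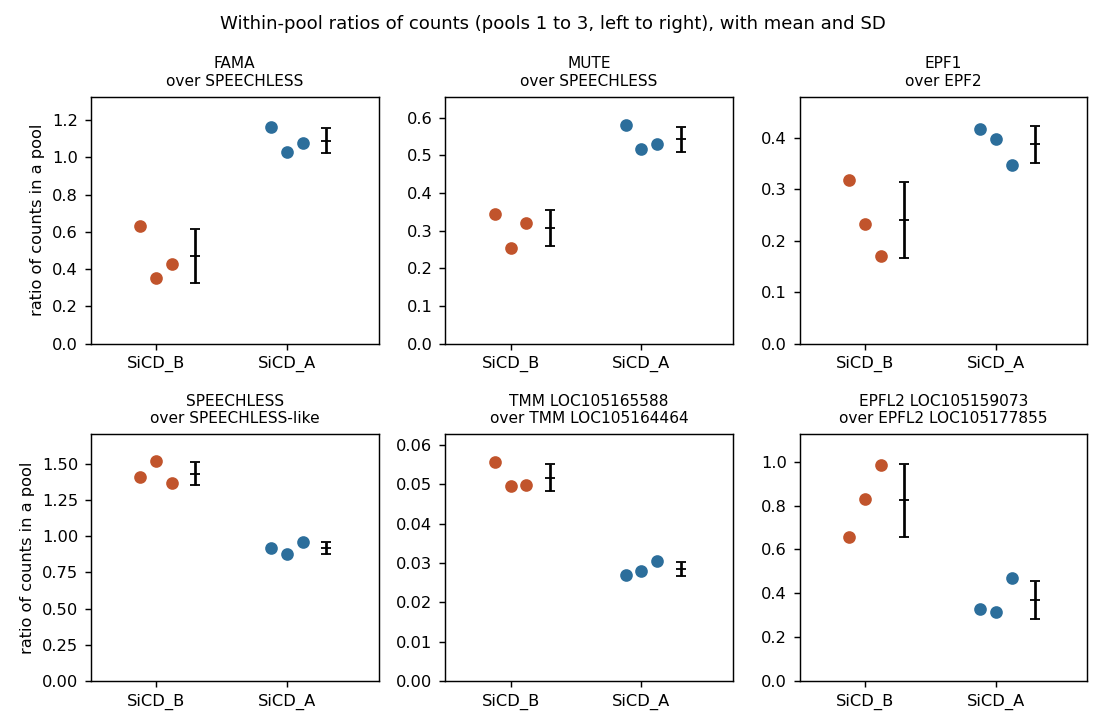
Ratio of the counts of 2 stomatal genes in the same pool (vertical axis, from 0) for the 3 SiCD_B pools and the 3 SiCD_A pools, with mean and SD. FAMA over SPEECHLESS, MUTE over SPEECHLESS and EPF1 over EPF2 are lower in SiCD_B, and the ratios of SPEECHLESS over SPEECHLESS-like and of the 2 genes named TMM (TOO MANY MOUTHS) and EPFL2 are higher, with no overlap of pools in any panel.

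The remaining 4 genes were found by the word stomatal and encode actin-binding proteins named for a role in closing the finished pore. Type 1 gene LOC105170938 (linkage group 9) had 61.0, 61.6 and 63.0 CPM in SiCD_B and 53.2, 57.3 and 56.5 CPM in SiCD_A. It rose by only 0.15 on the log2 scale (SE 0.04, adjusted p = 0.0282), with separate groups, and did not pass without SiCD_A pool 1 (adjusted p = 0.119), SiCD_B pool 2 (0.0747) or SiCD_B pool 3 (0.0926). The other type 1 gene (LOC105163715) had 0.06 (adjusted p = 0.383). Type 2 (LOC105155823) had -0.10 (SE 0.04, adjusted p = 0.0796) with all SiCD_B pools below all SiCD_A pools, and type 3 (LOC105162690) had 0.47 (SE 0.16, adjusted p = 0.0573) with all SiCD_B pools above.

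Other genes of the pathway were taken from a list of 36, of which 35 were tested. Of these, 14 were higher and 0 lower in edgeR's test (12 and 0 in DESeq2's, and 15 and 0 at an unadjusted edgeR p under 0.05), with a median log2 fold change of 0.09. The background was 16.5% higher and 14.1% lower, and the median over all tested genes 0.01. The number higher was 8 without SiCD_A pool 1 or SiCD_B pool 2 and 9 without SiCD_B pool 3. The list was matched by name and includes co-receptors, shaggy-related kinases, MERISTEM L1 and SHORT-ROOT genes. Whether their changes belong to the stomatal lineage was not tested. The largest change was in a SOMATIC EMBRYOGENESIS RECEPTOR KINASE 2 gene (LOC105168460), of a family of co-receptors for ERECTA, with 15.2, 15.6 and 15.7 CPM in SiCD_B and 7.39, 7.21 and 8.52 CPM in SiCD_A (1.01, SE 0.08, adjusted p = 0.000133). The other gene of that name (LOC105158921) rose by 0.40 (adjusted p = 0.00134). In both, the SiCD_B pools all lay above the SiCD_A pools. The genes of a further member of the family, BRASSINOSTEROID INSENSITIVE 1-associated receptor kinase 1, did not pass (LOC105172594, -0.16, adjusted p = 0.123, and LOC105169199, -0.03, adjusted p = 0.581).

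The ERECTA relative ERL1 (LOC105160562) rose by 0.26 (SE 0.07, adjusted p = 0.0251), 1 of the 3 YODA genes (LOC105164079) by 0.12 (adjusted p = 0.0428), and 1 of the 2 genes of the MAP kinase MMK1 (LOC105159496) by 0.19 (adjusted p = 0.0160). The gene of MAP kinase kinase 5 (LOC105157897, 0.10, adjusted p = 0.296) did not pass. Nor did that of MAP kinase 3 (LOC105170343, 0.00, SE 0.12, adjusted p = 0.982), with 246.3 to 256.6 CPM in SiCD_B and 224.9 to 304.6 CPM in SiCD_A. SiCD_A pool 3 was its highest, and without that pool the value was 0.15 (adjusted p = 0.0268). POLAR-like (LOC105165077), a scaffold of the polarity complex, rose by 0.45 (SE 0.14, adjusted p = 0.0481), although its pools overlapped. Both MERISTEM L1 genes, homeobox factors of the outer cell layer, rose, by 0.40 (LOC105175372) and 0.34 (LOC105167974). SHORT-ROOT, a regulator of cell division and patterning, rose by 0.57 (LOC105158589), and its relative LOC105177821 by 0.42. Of the 9 genes of GSK3-type shaggy-related kinases 3 rose, where 16.5% of all tested genes did. They were epsilon (LOC105176353, 0.24) and 2 of the alpha type (LOC105168988, 0.20, and LOC105173188, 0.17). The other 6 had log2 fold changes between -0.04 and 0.10 and did not pass. Of 2 MYB88-like genes, named for a factor that limits guard mother cell divisions, LOC105156552 rose by 0.26 and LOC105168128 did not pass (0.07, adjusted p = 0.728). The calls of YODA and of alpha kinase LOC105173188 were the least firm, and held in 0 and 1 of the 6 fits with a pool left out. Those of ERL1, POLAR-like and MYB88-like LOC105156552 held in only 2 of the 6. MMK1 LOC105159496 and alpha kinase LOC105168988 kept theirs in 5. Calls that held in all 6 were those of the SOMATIC EMBRYOGENESIS RECEPTOR KINASE 2, MERISTEM L1 and SHORT-ROOT genes and the epsilon kinase.

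Genes of the working guard cell went mostly the other way. Of 34 found, 33 were tested, and 17 were lower and 3 higher, with a median log2 fold change of -0.26. The shares over all tested genes were 14.1% lower and 16.5% higher. SLAC1 (LOC105156615), the anion channel through which guard cells lose anions on closing, had 1.58, 0.934 and 0.695 CPM in SiCD_B, against 3.91, 3.66 and 4.15 CPM in SiCD_A. All SiCD_B pools lay far below all SiCD_A pools, and SLAC1 fell by 1.87 on the log2 scale (SE 0.26, adjusted p = 0.00139). The genes of aluminum-activated malate transporter 12, the other main anion channel of closing, fell by 0.71 (LOC105162181, adjusted p = 0.00440) and 0.69 (LOC105166435, adjusted p = 0.00574). The blue-light receptor phototropin-1 (LOC105170677) had 168.8, 144.8 and 148.1 CPM in SiCD_B and 250.6, 228.2 and 232.1 CPM in SiCD_A, and fell by 0.62 (SE 0.07, adjusted p = 0.000356).

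Part of that list is not confined to guard cells. The proton pumps (plasma membrane ATPases), which other cells express too, gave 6 lower and 0 higher of 9 in edgeR's test (7 and 0 both in DESeq2's and at an unadjusted edgeR p under 0.05), and the kinases named HT1 gave 5 lower and 2 higher of 14, the higher ones near their background of 16.5%. Among the HT1-type genes LOC105157197 fell by 0.42 (adjusted p = 0.000332) and LOC105157209 rose by 0.50 (adjusted p = 0.000931). The other 10 genes gave 6 lower and 1 higher, with 4 lower when pool 2 or 3 of SiCD_B or pool 2 of SiCD_A was left out. The lower ones were SLAC1, the malate transporter 12 genes and phototropin genes LOC105170677, LOC110012595 and LOC105172277. Whether these 10 are confined to guard cells was not tested. The DOF5.7-like genes LOC105178230 (-0.72, adjusted p = 0.069) and LOC105176376 (-0.26, adjusted p = 0.114) did not pass in edgeR's test. The higher one was a KAT1-like potassium channel gene (LOC105167295), of the inward channel of opening guard cells, with 0.710, 1.59 and 1.35 CPM in SiCD_B and 0.394, 0.603 and 0.479 CPM in SiCD_A. It rose by 1.30 (SE 0.34, adjusted p = 0.0194), with the call kept in 3 of the 6 fits that left out a pool. SRK2E (LOC105169578), the kinase that carries abscisic acid signals in guard cells, had -0.06 (adjusted p = 0.367).

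**Figure D5:**
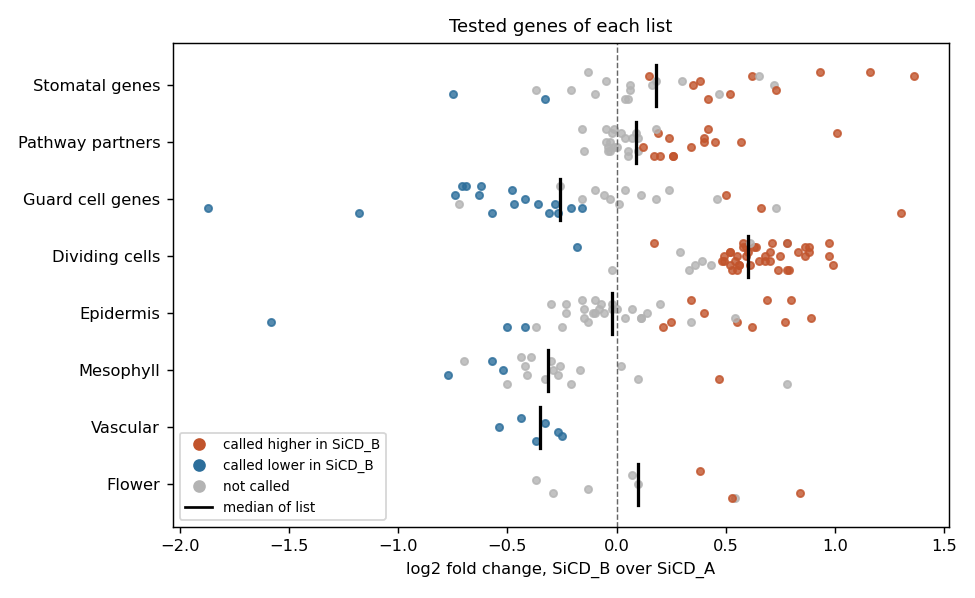
Log2 fold change (SiCD_B over SiCD_A, horizontal axis) of each tested gene of the stomatal genes and of 7 lists, coloured where called, with the median of each list as a black line. The medians run from 0.60 for dividing cell genes and 0.18 for stomatal genes to -0.26 for guard cell genes and -0.35 for vascular genes.

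Markers of other cell types and states were counted in the same way, against 16.5% higher and 14.1% lower over all tested genes. Of 49 tested genes of dividing cells, 40 were higher, among them histone H3.2 (LOC105172647, 0.86) and the mitotic cyclin-2 (LOC105158888, 0.68), and 1 was lower (0 with any pool left out). The lower one was a calcyclin-binding protein gene (LOC105175713, -0.18), matched by its letters and no marker of division. Their median was 0.60, with summed levels of 2895 to 3454 CPM in SiCD_B and 1826 to 2217 CPM in SiCD_A. Of 39 epidermal genes outside the lineage, 10 were higher and 3 lower, together near the background of 30.6%, with a median of -0.02, and 3 of the list are also among the pathway genes above. Their sum was 2149 to 2244 CPM in SiCD_B and 1792 to 2025 CPM in SiCD_A, and the lower ones numbered 5 without SiCD_A pool 3 and 1 without SiCD_A pool 2. PROTODERMAL FACTOR 1 (LOC105176844, 0.80) and the homeobox gene HDG11 (LOC105168541, 0.77) were among the higher ones. Wax genes named ECERIFERUM 3 were split, with LOC105165396 (-0.50) among the lower and LOC105155872 (0.21) among the higher. LOC105162876 (0.11) and the ECERIFERUM 3-like LOC105158256 (-0.02) were not called.

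Of 20 mesophyll genes, 1 was higher and 3 lower, with a median of -0.32 and sums of 21940 to 25830 CPM in SiCD_B and 21760 to 32800 CPM in SiCD_A, which overlapped. These counts were near or below the background. The number lower depended on the setting, with 11 with pool number as a block, 6 in DESeq2's test, 16 without SiCD_A pool 3, 1 without SiCD_B pool 1 and 0 without each of the other 4. The 6 vascular genes, all of the sieve element occlusion type, were all lower, with a median of -0.35 and sums of 142.1 to 166.0 CPM in SiCD_B and 184.1 to 209.3 CPM in SiCD_A, and 3 were lower when pool 2 or 3 of SiCD_B or pool 1 of SiCD_A was left out. Of 9 flower genes, 3 were higher and 0 lower in edgeR's test (3 and 0 in DESeq2's, 3 and 1 at an unadjusted edgeR p under 0.05), with a median of 0.10 and sums of 136.1 to 144.8 CPM in SiCD_B and 107.1 to 117.4 CPM in SiCD_A. Calls in either direction were near their background of 30.6%, while the background of higher calls alone was 16.5%. The higher ones were an APETALA 1 gene (LOC105180307, 0.84) and APETALA 2 genes (LOC105177600, 0.53, and LOC105176219, 0.38). APETALA 2 is also expressed in leaves. No gene of these 5 lists was at 0 in all pools. What part the dividing, epidermal, mesophyll, vascular or flower genes have in the values of stomatal, pathway and guard cell genes was not tested.

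By position the stomatal genes were spread over 12 linkage groups. Of the stomatal genes only EPF1 and BREAKING OF ASYMMETRY IN THE STOMATAL LINEAGE lie on linkage group 8, which carries the alleles, and neither was called. Genes of the lists also lie there. Those called higher and named above are LOC105168460 (SOMATIC EMBRYOGENESIS RECEPTOR KINASE 2), LOC105167974 (MERISTEM L1), alpha kinase LOC105168988, KAT1-like LOC105167295 and HDG11 LOC105168541. LOC105169199, LOC105168128 and SRK2E LOC105169578 lie there too and did not pass. For such genes a difference carried by linkage group 8 cannot be told apart from a change in the pathway. FAMA, MUTE and EPFL4 share linkage group 10. The authors' deposited table, which covers all 28 genes, has 13 higher and 3 lower at an adjusted p under 0.05. In that authors' deposited table EPFL6 (LOC105163858, 0.71, adjusted p = 0.0409), TOO MANY MOUTHS LOC105164464 (0.29, adjusted p = 0.0174), the type 3 actin-binding gene LOC105162690 (0.46, adjusted p = 0.0366) and the type 2 gene LOC105155823 (-0.11, adjusted p = 0.0476) pass, which were not called by edgeR.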

How the data were processed

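RNA was read as pairs of 100 bases from TruSeq RNA libraries, per the labels' protocols, a kit that does not mark strand, so reads of a gene and of an overlapping antisense gene cannot be told apart. The submitters' processing notes name HTSeq, DESeq2, SAMtools, STAR, Trim Galore and FastQC 0.11.4. No genome build is given in the sources used here. The authors deposited whole read counts per gene for 25762 genes, with no normalization. A further table that the authors deposited, with log2 fold changes and adjusted p-values of their own, gave product names and the position of 1 coding segment per gene. Linkage groups came from the RefSeq table of S_indicum_v1.0, in which all 28 genes were found. Reads shared by near-identical copies cannot be assigned with certainty.

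Counts were fitted over all genes with edgeR 4.0.16 in R 4.3.3 (robust quasi-likelihood test, TMM, filterByExpr, no covariate, SiCD_B minus SiCD_A, 6 pools). An SE is the log2 fold change divided by the square root of F. The members, the lists and the ratios were chosen with earlier results of these data known. Lists were matched by words in product names. Every stomatal gene is accounted for, with values per pool for those called. All called pathway genes and up to 4 genes of smallest p of each other list were to be named. Other genes named, and leaving out pools for the ratios, were chosen after their values were seen. No pair of pools within a group was alike to within counting noise (chi-square over its degrees of freedom, 5.32 to 30.4). The fit was tested on simulated data with 50 changed genes at each fold. It recovered 42 at 1.5-fold, 41 at 2-fold, 48 at 4-fold and 50 at 8-fold, and 11 of its 192 calls were false. The simulated pools were drawn independently, unlike the pools here that share plants, so this does not check the p-values given. The deposited normalized values and the short list of differing genes were not used. DESeq2 1.42.0, other scalings and filters, a pool block and leaving out each pool were alternatives. Figures were drawn with matplotlib 3.10.9.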

Additional observations from a re-analysis of the deposited data

How the results depend on the processing

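Over 13 alternative settings, 313 of 349 values of single stomatal genes kept their direction and their side of the threshold, and 9 of the 12 called genes kept their call in all of them. The exceptions were EPF2, MUTE and actin-binding gene LOC105170938, each lost only when a pool was left out. Values near 0 changed sign: with a pool left out, EPFL3 LOC105157768 ranged over -0.42 to 0.03 (positive without SiCD_B pool 3), SCREAM2 LOC105160821 over -0.06 to 0.12 (-0.06 without SiCD_A pool 3, -0.03 without SiCD_B pool 1), ICE1 LOC105165675 over -0.00 to 0.07 (lowest without SiCD_A pool 1) and LOC105168505 over -0.01 to 0.10 (lowest without SiCD_B pool 2). With a pool left out, stomatal genes numbered 8 to 13 higher and 1 to 3 lower, pathway genes 8 to 14 higher and 0 lower, guard cell genes 2 to 4 higher and 12 to 19 lower, and all calls 3919 to 5998, against 6433 with all pools. No ratio within a pool changed direction. Stomatal genes called higher numbered 14 with library size as the only scaling, which also raised the share of higher calls among all genes to 67.5%, against 53.8% with TMM, and 13 with DESeq2's test. With pool number as a block, 13 stomatal genes were higher and 3 lower, 1 pathway gene was lower and 5 guard cell genes were higher. The block added EPF1 (adjusted p = 0.0417), EPFL6 (0.0277), TOO MANY MOUTHS LOC105164464 (0.0145) and LOC105162690 (0.0475) and lost no stomatal call, though the numbers do not pair the pools by design: deviations of same-numbered pools correlated by 0.128, 0.0619 and 0.160, and each pool correlated best with its own number. The cause of these shifts was not tested. The fewest counts behind a stomatal gene were those of LOC105158567, EPFL3 and ERECTA LOC110011621, at 0 to 53 a pool.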
